A study of Gallus gallus with 14 samples.

Results

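The comparison was between DKO-S cells and the parental DT40 cells, both grown without doxycycline (DOX), on 2-colour arrays of chicken expressed sequence tag (EST) clones. It uses 4 of the 14 arrays of the series, chosen by their labels: for each line, culture A with its extract in Cy5 and culture B with its extract in Cy3. DT40 is a line of chicken pre-B lymphocytes derived with avian leukosis virus and easily altered by homologous recombination. In DKO-S the clathrin heavy-chain gene of DT40 had been deleted on both alleles, and clathrin was made instead from a Tet-Off promoter, which DOX shuts off, so that without DOX both lines had clathrin from different sources. DKO-R, used here only for side by side values, is a variant that arose from DKO-S and tolerates the repression of clathrin better. All cells were kept in RPMI medium with foetal calf serum and chicken serum, the latter varied between experiments and in some left out. The array methods do not give the amount of chicken serum. The labels call cultures A and B biological replicates.

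Clathrin forms the coat of vesicles that carry receptors with their ligands from the plasma membrane, and of others that leave the trans-Golgi network for endosomes. Adaptor complexes join the coat to its cargo. B lymphocytes make immunoglobulins that pass through the endoplasmic reticulum and Golgi, and on maturing to plasma cells they enlarge this pathway.

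Each value below is a log2 intensity after normalisation, and each difference is DKO-S minus DT40 in the same dye. DKO-S and DT40 were never on the same array, so that the line and the set of arrays cannot be told apart, and culture A is always Cy5 and culture B always Cy3, so that culture and dye cannot be told apart either. Spots of confidence 0.30 or more made up 57.3% to 67.4% of the spots on the 4 arrays. Both remaining DKO-S arrays kept 2.12% (culture A) and 23% (culture B) of their spots, are called weak arrays here, and were left out of the comparison. Differences by culture on the weak arrays are given with each channel centred on its median and with no confidence filter. On the weak array of culture A the median Cy5 intensity, 82.1, was below that of the blank spots, 102. Gene names come only from the 48 clones that the study lists for DKO-R and DKO-S, and 5 of these have no gene name. All 48 are called named entries here. None is named as clathrin heavy chain, so the replaced gene itself could not be checked. J chain was the only marker of B-lineage cells named among them.

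Of 12855 clones, 6935 were measured in both lines and both cultures. At an adjusted p under 0.15 (limma with Benjamini-Hochberg adjustment), 475 clones passed, 6.85% of those tested, of which 189 were higher in DKO-S (2.73%) and 286 lower (4.12%). The variance was pooled over all clones, so that each difference had the same standard error of 0.48 and a clone passed when its mean difference was 1.23 or more in size. Of the clones that passed, 466 had the same sign in both cultures and 9 had opposite signs. Over all clones tested, 2924 of 6935 changed sign (42.2%). A mean of that size in itself favours the same sign, so that the agreement was largely given by the selection. A difference of 2-fold or more in both cultures was seen in 139 clones upwards (2%) and 224 downwards (3.23%). The median difference over all clones was 0.16 in culture A and -0.37 in culture B, and when each culture was centred on its median, 527 clones were higher and 469 lower, so that the share of higher clones was 52.9% in place of 39.8%. Across clones, which are not independent replicates and share the dye and array effects of each pair, the differences of both cultures had a Pearson's r of 0.45 and a Spearman's rho of 0.42.

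**Figure D1:**
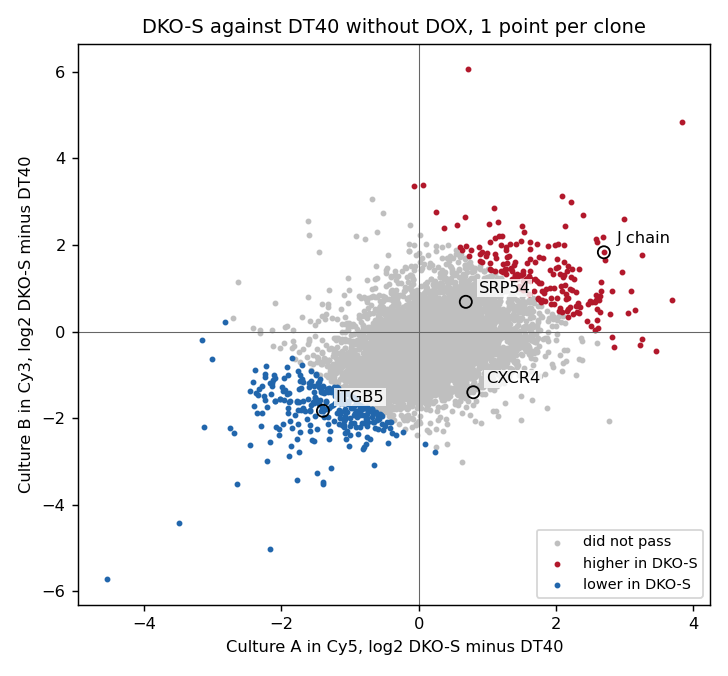
The difference between DKO-S and DT40 without DOX in culture A (x axis, Cy5, log2) against culture B (y axis, Cy3, log2), with 1 point for each of 6935 clones and those past the threshold in red (higher in DKO-S) and blue (lower). J chain lies among the clones higher in both cultures and ITGB5 among those lower in both, while CXCR4 lies above 0 in culture A and below 0 in culture B.

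Among clones with a gene name, J chain was higher and ITGB5 lower in DKO-S, and no other passed the test. Of the 48 named entries (47 listed, as CD63 has a pair of clone names under the same accession), 47 were measured, and these 2 are 4.26% of them, against 6.85% of all clones. The entries were chosen by the study for differences between DKO-R and DKO-S on arrays of this series, which is not independent of the DKO-S values used here. Their median mean difference was -0.17, against -0.10 for all clones.

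J chain, the small polypeptide that links immunoglobulin monomers in secreted IgM and IgA, was higher in DKO-S than in DT40 in both cultures, by the labels of the DOX arrays. In culture A its level was 13.30 in DKO-S and 10.60 in DT40. In culture B its level was 12.80 in DKO-S and 10.97 in DT40. Both DKO-S channels lay above both DT40 channels, with no overlap. The differences of 2.70 and 1.83 gave a mean of 2.26 ± 0.61 (SD, n = 2; 4.80-fold, SE 0.48, limma adjusted p = 0.000617). The clones with the same name prefix as J chain, DT40subNB, had medians of -0.06 and -0.56 in cultures A and B, so that J chain moved against these medians. Of 1138 tested clones of that prefix, 9 passed as higher, J chain included, and 73 as lower. Among the 9 were differences larger than that of J chain, of 2.54 and 2.33. When 1 of the 4 channels was left out, which needed a fit with all 3 lines, the J chain difference ranged from 1.84 to 2.62. It no longer passed in any of these fits. Hardly any clone passes in them, so that this is not particular to J chain.

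ITGB5 encodes the integrin subunit beta 5, which pairs with alpha v in a receptor for vitronectin. In culture A its level was 13.49 in DKO-S and 14.88 in DT40. In culture B its level was 11.29 in DKO-S and 13.12 in DT40. DKO-S was below DT40 in each dye, although the lines overlap across dyes, since Cy5 was the brighter dye for this clone. The differences of -1.40 and -1.83 gave a mean of -1.61 ± 0.31 (SD, n = 2; 3.06-fold lower, SE 0.48, limma adjusted p = 0.0318). Clones of the same prefix, pat.pk, had medians of 0.05 and -0.53. Without the pairing of channels by culture and dye ITGB5 did not pass (limma adjusted p = 0.370), nor did it in the fit of all 3 lines (limma adjusted p = 0.175). Leaving out any 1 of the 4 channels from that fit gave values from -2.30 to -0.90. These did not pass either, but hardly any clone passes in such a fit.

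**Figure D2:**
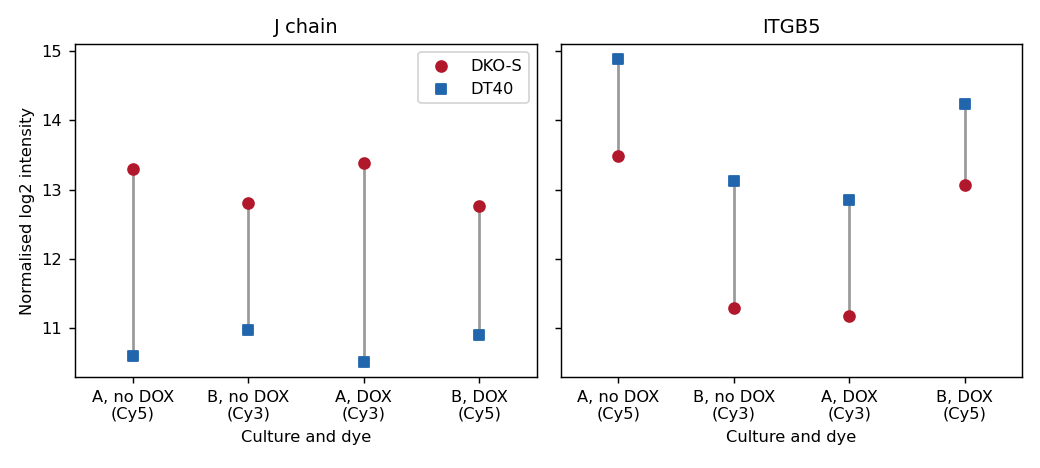
Normalised log2 intensity (y axis) of J chain (left) and ITGB5 (right) in DKO-S (red circles) and DT40 (blue squares), for each culture with and without DOX on the same 4 arrays (x axis, dye in brackets), each point being 1 channel and each line joining the pair compared. J chain is above DT40 in every pair, from 12.76 to 13.39 in DKO-S and from 10.51 to 10.97 in DT40, and ITGB5 is below DT40 in every pair.

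The same arrays carry the extracts with DOX in their other channels, which are therefore not independent of the values above. With DOX the J chain difference was 2.87 in culture A and 1.86 in culture B (limma adjusted p = 6.74e-05), and that of ITGB5 was -1.68 and -1.16 (limma adjusted p = 0.0431). SRP54 also passed there, with 0.77 and 1.79 (limma adjusted p = 0.0821), which makes 3 of the 47 named entries, 2 higher and 1 lower, against 10.3% of all clones (3.66% higher and 6.62% lower). Whether the difference between the lines depends on DOX was not tested.

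The remaining genes of the secretory pathway and membrane traffic did not pass, and 6 of the 9 measured entries of this group changed sign between cultures. The group had 1 higher and 0 lower entries (11.1%, against 6.85% of all clones) and a median mean difference of -0.00. Groups of this size, here and below, are too small to be told apart from the share of all clones. SRP54, the subunit of the signal recognition particle that binds signal sequences, was the steadiest of them, at 11.33 in DKO-S and 10.64 in DT40 in culture A. In culture B its level was 11.48 in DKO-S and 10.80 in DT40. The DKO-S channels lay above the DT40 channels with no overlap, by 0.69 in each culture, less than the 1.23 needed to pass (limma adjusted p = 0.560). In DT40 culture A only 1 of the 2 SRP54 spots was kept. Without the confidence filter its mean difference was 1.24 and passed (limma adjusted p = 0.140). In the DKO-S channels of the direct arrays it was -0.69 (limma adjusted p = 0.264), and on the weak arrays -0.21 and 1.80. Both direct arrays are of culture A, so that this p holds no spread between cultures.

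AP1B1, the beta 1 subunit of the AP-1 adaptor complex that recruits clathrin at the trans-Golgi network, was 12.66 in DKO-S and 11.10 in DT40 in culture A. In culture B it was 10.74 in DKO-S and 11.19 in DT40. The differences, 1.56 and -0.45, thus had opposite signs and the lines overlapped (limma adjusted p = 0.676). XBP1, a transcription factor of the unfolded protein response and of plasma cell development, differed by 0.45 and -0.94. DDIT3, a transcription factor induced by stress of the endoplasmic reticulum, differed by 0.74 and -1.40, with only 1 of its 2 spots kept in DKO-S culture B. CKAP4, a membrane protein of the endoplasmic reticulum, differed by 0.32 and -1.03. All 3 were higher in DKO-S in culture A and lower in culture B. The tetraspanin CD63 of late endosomes differed by 1.42 and 0.37 on one clone name and by 0.95 and -0.95 on the other. TCIRG1, a subunit of the vacuolar proton pump, differed by 0.40 and -0.80. CHMP7, a subunit of the ESCRT-III machinery that remodels membranes, was not measured in both lines.

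None of the 7 signalling entries passed, where 6.85% of all clones did, so that none is near what any 7 clones would give. Their median mean difference was -0.17, against -0.10 for all clones. CXCR4, the receptor of the chemokine SDF-1 and the gene that the study followed in DKO-R, was 11.90 in DKO-S and 11.11 in DT40 in culture A. In culture B its level was 9.92 in DKO-S, where 2 of its 4 spots were kept, and 11.33 in DT40, where 3 were kept. The DT40 channels lay between the DKO-S channels, and the differences of 0.79 and -1.40 gave a mean of -0.30 ± 1.55 (SD, n = 2; SE 0.48, limma adjusted p = 0.858). In the 3-line fit without the DKO-S channel of culture A its difference was -1.36 and without that of culture B 0.76. Its sign thus rested on which channel was used, and culture and dye cannot be told apart there. On the weak arrays CXCR4 was -0.83 in culture A (Cy3) and 0.49 in culture B (Cy5). With DOX it was -0.81 in culture A (Cy3) and -0.34 in culture B (Cy5). The direct arrays, of culture A, gave 1.79 in Cy5 and -0.57 in Cy3 in the channels labelled DKO-S. Those labelled DKO-R gave 1.60 and -0.91. The part of the dye was not tested. CCL17, a chemokine that attracts T lymphocytes, differed by 0.83 and 0.12. NFKBIE, an inhibitor that holds NF-kappaB in the cytoplasm, differed by -0.02 and -1.36. Of the MAP kinase genes, MAP2K3, which activates p38, differed by -0.34 and -0.05. DUSP1, a phosphatase of MAP kinases, differed by 0.54 and -0.14. The clone of low homology to MAP4K4 differed by 0.70 and -0.64 and KIDINS220, a membrane scaffold of neurotrophin signalling, by 0.74 and -1.08.

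Of the 3 cytoskeleton and adhesion entries only ITGB5 passed (33.3%, against 6.85% of all clones, and too few entries to compare). All 3 means were negative, from -1.61 to -0.45, but all 3 clones have the prefix pat.pk, whose median mean difference was -0.24. The other entries changed sign between cultures. CAPZB, which caps the growing ends of actin filaments, differed by 0.18 and -1.22, but by 0.57 and 1.65 on the weak arrays. Tara, which binds filamentous actin, differed by 0.30 and -1.19, but by 0.39 and 2.58 on the weak arrays. None of the 7 immune entries passed (6.85% of all clones did), with means from -0.68 to 0.14. NK-lysin, an antimicrobial peptide of cytotoxic lymphocytes, differed by -0.31 and -1.04, but by 1.29 and 1.41 on the weak arrays. CD274, the ligand of the inhibitory receptor PD-1, differed by 0.75 and -0.46.

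None of the 9 transcription and nuclear entries passed (6.85% of all clones did), and their means lay between -0.44 and 0.40. LMO2, an adaptor of transcription complexes in blood cell formation, differed by 0.76 and -0.05. CDC73, a subunit of the PAF1 complex that travels with RNA polymerase II, differed by 0.24 and 0.23. RAD54B, a protein of recombinational repair, differed by -0.70 and -0.18, but by 1.78 and 1.96 on the weak arrays. With that centring on channel medians it was called higher there (mean 1.87, limma adjusted p = 0.0242). The 7 entries of metabolism and other functions gave no call either, against the same 6.85% of all clones, with means from -0.72 to 0.47. GAPDH, the glycolytic enzyme often used as a reference gene, differed by 0.65 and -0.79. RPL10A, a protein of the large ribosomal subunit, differed by 0.67 and -0.35. The 5 entries without identity had means from -0.60 to 0.72 and gave no call, against that same share.

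Over all named entries, 29 of 47 (61.7%) changed sign between the cultures, against 2924 of 6935 clones (42.2%), while 8 were higher in both and 10 lower in both. Culture A gave the higher difference in 41 of the 47 (87.2%), against 74.0% of all clones. After each culture was centred on its median over all clones, it did so in 37 of the 47 (78.7%), against 49.3% of all clones. Culture, dye and array move together here, and the part of each was not tested.

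**Figure D3:**
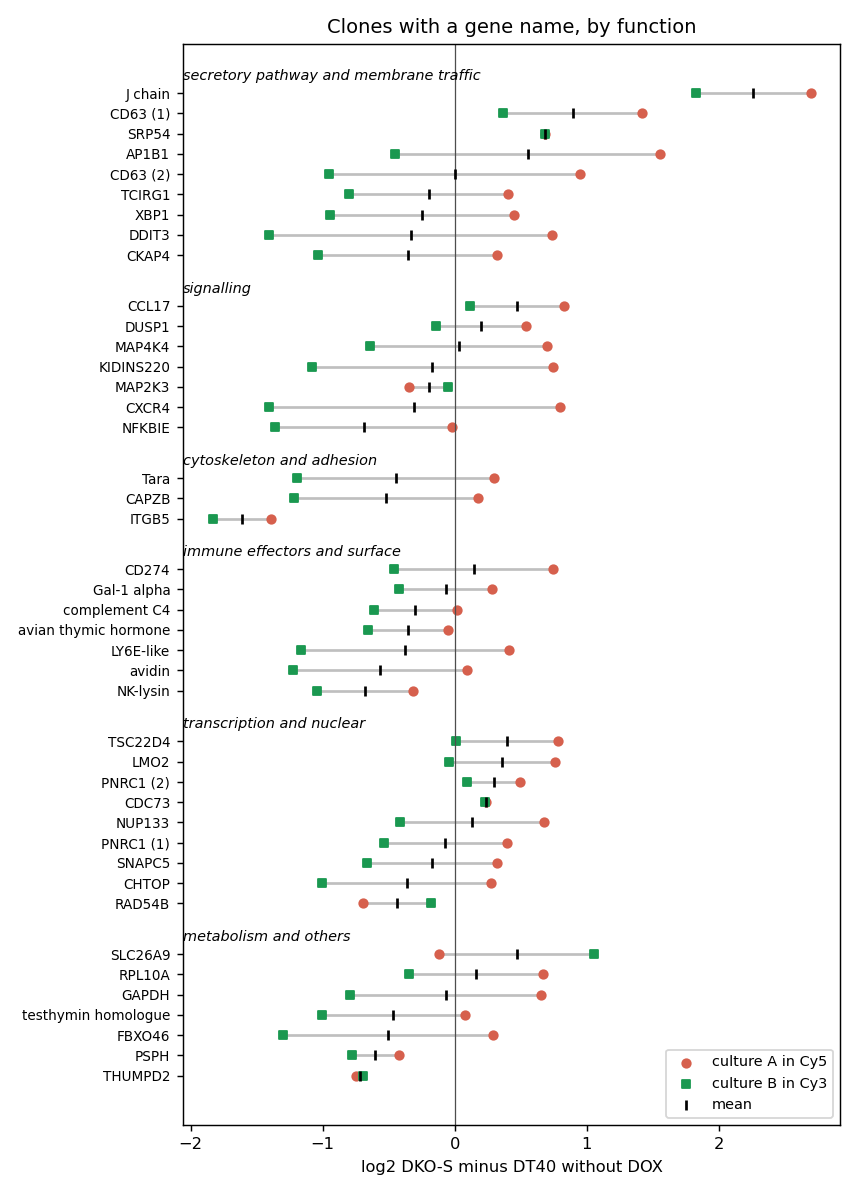
Log2 difference between DKO-S and DT40 without DOX (x axis) for the 42 measured entries with a name, grouped by function, in culture A (red circles, Cy5) and culture B (green squares, Cy3), with the mean as a black bar. In most entries the red point lies to the right of the green one and on the other side of 0, while J chain is right of 0 and ITGB5 left of 0 in both cultures.

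The clones that passed were mostly outside the named entries (473 of 475), and they are known by clone name only. ChEST768I23 was the highest on average, with 13.26 in DKO-S and 9.43 in DT40 in culture A. In culture B it was 13.87 in DKO-S and 9.02 in DT40. Both DKO-S channels lay far above both DT40 channels, with a mean difference of 4.34 ± 0.72 (SD, n = 2; SE 0.48, limma adjusted p = 7.31e-16). Only 1 of its 2 spots was kept on each array, and without the confidence filter its mean difference was 2.04 (limma adjusted p = 0.0487). ChEST758G22 followed with a mean of 3.38 ± 3.78 (SD, n = 2, SE 0.48, limma adjusted p = 2.80e-09). That p uses the SE common to all clones and not the spread of this clone. The difference rested on culture B, where it was 6.05, against 0.71 in culture A. Without the DKO-S channel of culture B it was 1.37, and without the DT40 channel of that culture 1.40, in fits where no clone passed. Nor did ChEST758G22 pass without the pairing. Only 1 of its 2 spots was kept in DKO-S culture B and in both DT40 cultures. Without the confidence filter the mean difference of ChEST758G22 was 2.23.

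On the lower side, pat.pk0033.b2f was 10.01 in DKO-S and 14.55 in DT40 in culture A. In culture B it was 9.31 in DKO-S and 15.04 in DT40. It was the lowest clone of the comparison at -5.13 ± 0.84 (SD, n = 2; 35.1-fold lower, SE 0.48, limma adjusted p = 1.33e-22). Only 1 of its 2 spots was kept in both DKO-S cultures and in DT40 culture B. Without the confidence filter its mean difference was -5.31 (limma adjusted p = 0.000174). ChEST127L13 was 9.99 in DKO-S and 13.48 in DT40 in culture A, and 10.07 and 14.49 in culture B. Its mean difference was -3.96 ± 0.66 (SD, n = 2; SE 0.48, limma adjusted p = 4.73e-13), again with no overlap of the lines. In DKO-R the same clone was also below DT40, by -2.67 and -3.69 in the same dyes, on other arrays but against the same DT40 channels. Leaving out a channel of culture B from ChEST127L13, in either line, gave -3.72 and -3.44, in fits where no clone passed.

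The weak arrays hold the same DKO-S extracts in the other dye, and were set against the DT40 arrays of that dye with no confidence filter. Each channel was centred on its median, except in the loess fit named below. Relative to the median of each, 376 of the 475 clones that passed (79.2%) kept their sign on both weak arrays, against 45% of those that had not passed. The latter had mean differences under 1.23 in size, so that a lower share was given by the selection and is no baseline. Of the 286 lower clones 240 kept their sign on both (83.9%), with medians of -1.25 and -1.26 there. Of the 189 higher clones 136 did so (72%), with medians of 0.81 and 0.92. The extracts are the same, so that this repeats the hybridisation and not the culture. Relative to the medians J chain was higher on both (2.61 and 3.05), and pat.pk0033.b2f was lower on both (-5.50 and -3.26). ITGB5 was at -0.26 and -0.04 there, nearer to 0 than in the comparison. Of the 47 measured named entries, 40 were above the median on both weak arrays (85.1%), against 32.3% of all clones, with medians of 1.09 and 1.94 before centring. In the fit of the weak arrays after loess, also with no confidence filter, 22 named entries that had not passed were called higher and none lower. Of all 12855 clones in that fit, 661 were called higher and 1001 lower. In the comparison 13 of the 22 named entries had a mean of the opposite sign. NFKBIE turned from -0.69 to 2.05 there (limma adjusted p = 0.0143), THUMPD2 from -0.72 to 1.73 (limma adjusted p = 0.0312) and KIDINS220 from -0.17 to 1.75 (limma adjusted p = 0.0321). The channel beside the DKO-S extract was dim on both, at a median Cy5 intensity of 82.1 (blank spots 102) in culture A and a median Cy3 intensity of 87.7 (blank spots 70.6) in culture B, and its part in these values was not tested.

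J chain also set DKO-S apart from DKO-R on the DOX arrays. In culture A DKO-S was 2.72 above DKO-R and in culture B 2.57, a mean of 2.64 ± 0.11 (SD, n = 2; SE 0.32, limma adjusted p = 0.145), one of 5 clones to pass among 7162 (0.0698%), of which 4 were higher (0.0559%) and 1 lower (0.014%) in DKO-S. All 4 higher clones have the prefix DT40subNB, and one of them, DT40subNB_4H8, differed by more than J chain, 3.45. All tested clones of that prefix had medians of 0.13 and -0.05 between DKO-S and DKO-R in cultures A and B. For J chain DKO-R was near or below DT40, by -0.06 and -0.76. The 2 arrays that compare DKO-R and DKO-S directly give the opposite labels: on them the channels labelled DKO-S were 0.06 and 0.49 above DT40, and those labelled DKO-R 3.31 and 2.97 above it. Of the 46 named entries measured on both sets, 8 had 1 sign in both cultures on the DOX arrays and 1 sign in both dyes on the direct arrays. In 6 of these, J chain, MAP2K3, NUP133, both PNRC1 clones and the testhymin homologue, the signs of the sets were opposite, and in THUMPD2 and SLC26A9 they were the same. MAP2K3, for example, was higher in DKO-S than in DKO-R by 0.45 and 1.21 on the DOX arrays and lower by -1.39 and -0.67 on the direct arrays. Which labels hold cannot be settled from these values, so that not only J chain but every difference given here belongs to DKO-S only as far as the labels of the DOX arrays do. For ITGB5 the direct arrays gave -1.73 and -1.13 in the channels labelled DKO-S, and -1.27 and -1.38 in those labelled DKO-R, below DT40 by either labels. The Cy5 values of the direct arrays use the DT40 channel of culture A of the comparison, and so are not independent of it. Their Cy3 values use the DT40 channel set against the weak array of culture A. On the weak arrays ITGB5 was at -0.08 in culture A and 0.16 in culture B. In DKO-R on the DOX arrays, against the DT40 channels of the comparison, ITGB5 was -1.89 in culture A and 0.03 in culture B.

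**Figure D4:**
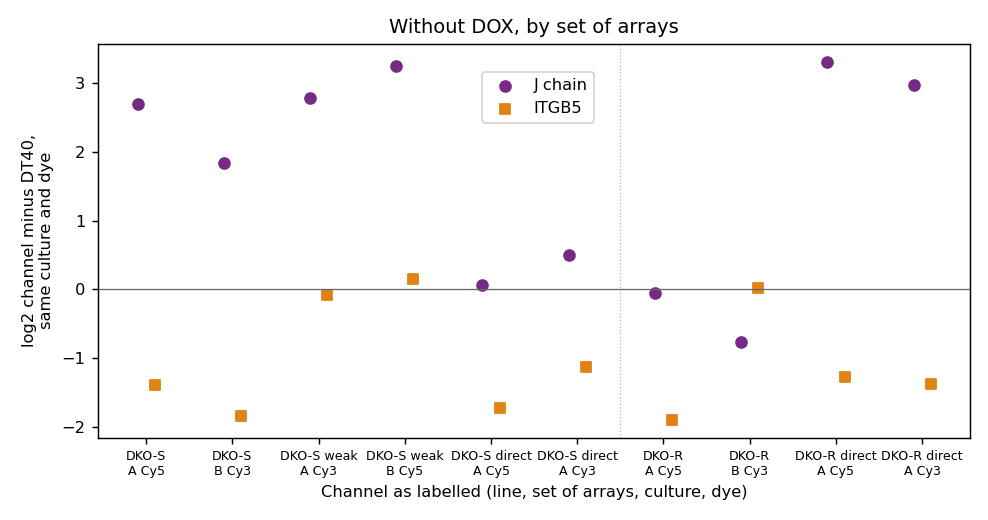
Log2 difference from DT40 of the same culture and dye (y axis) for J chain (purple circles) and ITGB5 (orange squares) in each channel without DOX (x axis, labelled with line, set of arrays, culture and dye), with 1 point per channel. J chain is 1.83 or more above DT40 in the DKO-S channels of the DOX arrays, weak ones included, and in the channels labelled DKO-R on the direct arrays, and near or below DT40 elsewhere. Weak arrays are shown with channels centred on their medians and no confidence filter.

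The clones differed by the prefix of their name. Of the 189 clones higher in DKO-S, 173 began with ChEST, where 4.05% of 4276 tested clones were higher and 3.27% lower. DT40subNB had 0.791% higher and 6.41% lower of 1138, pgn1c 0.826% and 7.02% of 484, pat.pk 0.367% and 3.3% of 817, and dkfz426 0 higher and 12 lower of 212. The median mean difference was 0.02 for ChEST and between -0.30 and -0.24 for these other prefixes. Of the 47 measured named entries, 40 have one of the latter prefixes, and what part the prefix has in the balance of higher and lower clones was not tested. With each culture centred on the median of the prefix, 3 further named entries passed, SRP54 at 0.99, 1 CD63 clone at 1.13 and 1 entry without identity at 0.95. With that centring 506 of all 6935 clones passed as higher and 485 as lower, more than in the comparison.

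**Figure D5:**
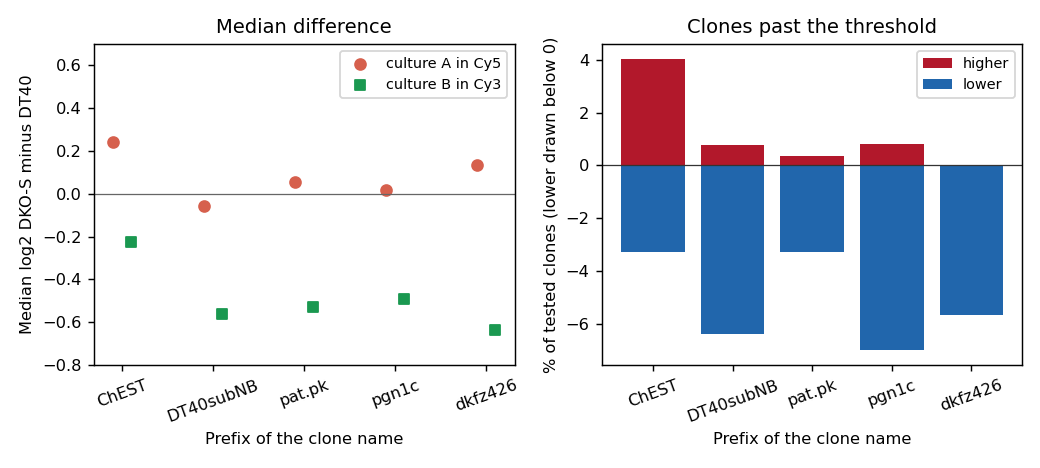
Left, the median log2 difference between DKO-S and DT40 without DOX (y axis) for clones of each name prefix (x axis) in culture A (red circles, Cy5) and culture B (green squares, Cy3). Right, the percentage of tested clones past the threshold, with higher in red above 0 and lower in blue drawn below 0, where ChEST alone has more higher (4.05%) than lower clones (3.27%).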

How the data were processed

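The authors labelled total RNA (amounts differ between the labels and the methods), hybridised it to 2-colour EST arrays and deposited the intensity of each spot and channel from BlueFuse for Microarrays (version 1.1, build 2765, per the file headers and labels), not normalised, with the spot confidence as a deposited fraction. Cy3 and Cy5 were assigned to channels from the labels. A deposited log2 ratio table was not used. For DOX, dose and time on the arrays are not given in the sources used here.

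Spots of confidence 0.30 or more were normalised by loess (span 0.3) within and Aquantile between the 4 arrays, and spots of a clone averaged. Differences within dye and culture were fitted with limma 3.58.1 (R 4.3.3; lmFit, eBayes, 1 residual degree of freedom, prior variance shared by all clones) with Benjamini-Hochberg adjustment and a threshold of 0.15, the study's false discovery rate. Pairing follows the dye. The deviations of paired channels from their line means had a correlation of 0.15 across clones. With 2 cultures per line, the number of arrays limits the precision, and the p-values rest on the pooled spread.

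Named were all clones the study lists and of the other clones that passed and had 1 sign in both cultures, the 10 with the highest and the 10 with the lowest mean, of which 2 and 2 are printed. Gene names come from that list, and 31 of 41 symbols matched RefSeq. The members, groups of genes and tests were chosen with earlier results of these data known.

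Alternatives were another threshold, no pairing, all 3 lines in one fit, leaving out a channel, other confidence limits, other normalisations, dim clones left out, the weak arrays and the direct arrays. Centring on medians, centring on the prefix, the weak arrays with median centring and the channels labelled DKO-R on the direct arrays were chosen after seeing the data.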

Additional observations from a re-analysis of the deposited data

Results flagged for a closer look

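J chain differed between DKO-S and DKO-R without DOX by 2.64 (SE 0.32, n = 2, limma adjusted p = 0.145), higher in DKO-S in 2 of 2 cultures, which means that the differences of both lines from DT40 were unequal. The DKO-S channels are those of the comparison with DT40, and the direct arrays give the opposite direction by their labels. It did not pass at 0.05, with channels centred on their medians, without the pairing or without the confidence filter.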

How the results depend on the processing

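Of 189 higher and 286 lower clones, 84 and 132 passed at 0.05, 41 and 77 without the replicate block, 105 and 183 with 3 lines in 1 fit, and 7 and 6 of 3106 clones at a confidence of 0.60. Leaving out 1 of the 4 channels, in the 3-line fit, left 0 to 1 higher and 0 to 4 lower clones, with 666 to 1254 clones at an unadjusted limma p under 0.05, against 1037. Without the confidence filter 536 and 551 of 12855 clones passed. On the weak arrays 661 and 1001 of 12855 passed after loess, and 897 and 756 with medians. In the DKO-S channels of the direct arrays 401 and 901 of 6548 passed, and 408 and 951 in the channels labelled DKO-R there. The comparison tested 6935, so that these counts are of unlike totals. Both direct arrays are of culture A, so that their counts hold no spread between cultures. Centring gave 527 and 469, and centring on the prefix 506 and 485. Median centring of channels, quantile normalisation, 14 arrays together and leaving out dim clones kept both counts within 1.5 times.

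ChEST758G22 turned to -0.19 and -0.25 in the channels labelled DKO-S and DKO-R on the direct arrays, and ITGB5 to 0.040 on the weak arrays with medians. SRP54, not called, was -0.69 in the DKO-S channels of the direct arrays. Named entries that had not passed became calls, all higher, in 22 cases on the weak arrays (28 with medians), 4 in the channels labelled DKO-R on the direct arrays, 3 with prefix centring, 1 with centring and 1 without the filter, 13, 17, 3, 0, 0 and 0 of them from a mean of opposite sign. In the same order, all clones called higher were 661 and 897 of 12855, 408 of 6548, 506 and 527 of 6935, and 536 of 12855. J chain was 0.28 in the DKO-S channels of the direct arrays (limma adjusted p = 0.635) and 3.14 in those labelled DKO-R (limma adjusted p = 0.00129). Both direct arrays are of culture A. Fits to them swap the dye and not the culture, so that their p-values hold no spread between cultures. Over all alternatives its adjusted p ran from 3.41e-06 to 0.635, and that of ITGB5 from 0.00847 to 0.976. ChEST768I23 was 0.92 on the weak arrays (1.17 with medians) and did not pass there. Neither it nor pat.pk0033.b2f could be fitted with a channel left out, as they were not measured on both DKO-R arrays of that fit. On the direct arrays pat.pk0033.b2f was -2.80 in a channel labelled DKO-S (Cy5) and -2.71 in a channel labelled DKO-R (Cy3). The causes were not tested.

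Between DKO-S and DKO-R, 4 higher and 1 lower clone became 0 and 0 under each alternative (limma, with 491 clones at an unadjusted p under 0.05 without the pairing, 583 with medians, 607 at the threshold of 0.05 and 1040 without the filter). With DOX, 254 and 459 became 138 and 238 at 0.05. Cross-array comparisons, 2 cultures a line and weak arrays limit all values.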
